A study of Homo sapiens with 4 samples.

Results

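Very short m6A peaks were the peaks of 50 bp or less in the 2 peak lists of a MeRIP-seq experiment in RWPE1 cells. They were chosen by their listed width, end minus start, which is itself a measured value, so their widths and numbers are given as a description. There were 456 such peaks among the 10087 peaks of the control list and 173 among the 10323 peaks of the FTO knockdown list, 629 of 20410 in all. RWPE1 is a line of human prostate epithelium immortalized with human papillomavirus. The cells carried a lentiviral GV248 shRNA vector with 1 target sequence in FTO (shFTO) or the control vector (shCtrl), and both were kept under puromycin as stable lines. Each condition had 1 m6A IP library and 1 input library, 4 in all, so no difference between the conditions has a replicate check and no test was made. The lists hold no read totals, so the sequencing depth is unknown. No gene was assigned to a peak, since the gene table used here is of another build than hg19, the build in the submitters' processing notes, and all positions are 1-based and as listed. For the same reason neither the loss of FTO nor the epithelial markers of RWPE1 could be checked in these lists.

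FTO, the target of the shRNA, is a dioxygenase that takes the methyl group off N6-methyladenosine (m6A) in RNA, as ALKBH5 does. The mark is laid down on nascent mRNA, largely within the DRACH consensus, and is dense in long internal exons and near stop codons, where YTH-domain proteins that bind it affect the stability and translation of the transcript. In MeRIP-seq, RNA is broken into fragments and pulled down with an antibody against m6A, so a peak is usually as wide as the fragments or wider, and it locates a mark to a stretch of RNA rather than to 1 base. Reads that cross a splice site align to separate exons, and a peak on the genome can then end at the edge of an exon.

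The shCtrl list held more very short peaks than the shFTO list at a nearly equal total. They made up 4.52% of the shCtrl list (95% Wilson interval 4.13% to 4.94%) and 1.68% of the shFTO list (1.45% to 1.94%). The ratio of shCtrl to shFTO was 2.64 for these peaks and 0.977 for all peaks. The imbalance was larger at 20 bp or less than from 21 to 50 bp. From 1 to 10 bp there were 22 shCtrl and 4 shFTO peaks, a ratio of 5.50, and from 11 to 20 bp 67 and 9, a ratio of 7.44. From 21 to 30 bp there were 84 and 28, a ratio of 3.0. From 31 to 40 bp the numbers were 124 and 45, a ratio of 2.76, and from 41 to 50 bp 159 and 87, a ratio of 1.83. Just above the limit the lists were closer, with 1363 and 1105 peaks of 51 to 100 bp, a ratio of 1.23. The median width of the very short peaks was 35 bp in the shCtrl list and 41 bp in the shFTO list.

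**Figure D1:**
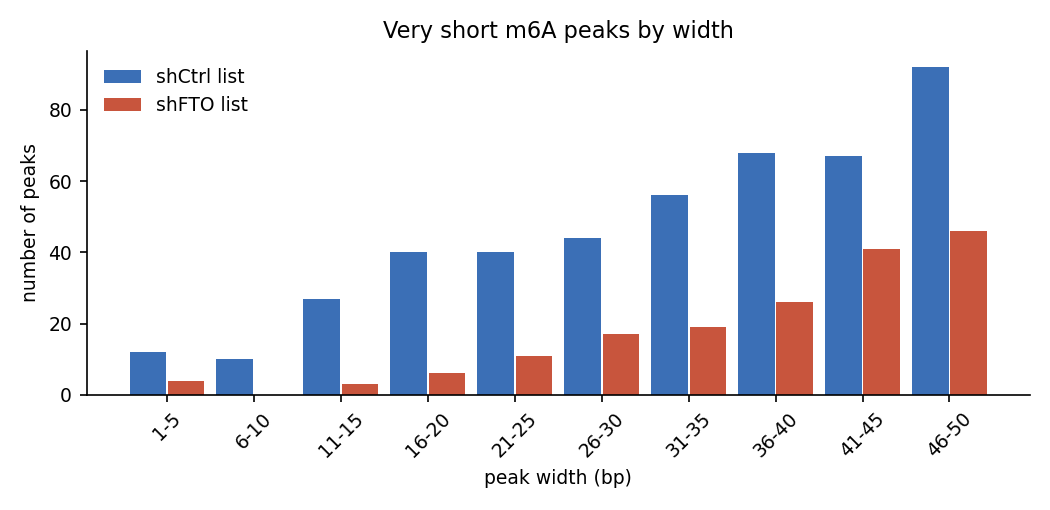
Number of very short m6A peaks (vertical axis) in classes of 5 bp of peak width (horizontal axis) in the shCtrl list (blue) and the shFTO list (red). In all 10 classes the shCtrl list held more peaks, and both lists held more peaks toward 50 bp.

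The excess was spread over the genome. Of 24 chromosomes, 22 held more very short peaks in the shCtrl list and 2 held equal numbers. On the 20 chromosomes with at least 200 peaks in each list, very short peaks made up from 2.87% (chromosome 11) to 6.51% (chromosome 2) of the shCtrl peaks and from 0.498% (chromosome 22) to 2.77% (chromosome 3) of the shFTO peaks. The plus strand carried 232 of the 456 shCtrl members, or 50.9% (46.3% to 55.4%), and 103 of the 173 shFTO members, or 59.5% (52.1% to 66.6%). Over all peaks the plus strand carried 51.2% in both lists.

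The peaks on either side of the 50 bp limit overlapped in score. The 13 shCtrl peaks of exactly 50 bp had scores from 53.9 to 460.26 with a median of 111.13, and the 18 peaks of 51 bp had scores from 50.63 to 767.09 with a median of 94.17. Among shFTO peaks the 7 of 50 bp ranged from 75.07 to 1160.8 with a median of 196.3, and the 15 peaks of 51 bp from 55.89 to 2263.2 with a median of 131.2. The highest-scoring peaks just inside the limit were at chr7:35925440-35925489 (plus strand, 460.26) and chr3:112272127-112272176 (minus strand, 357.24) in the shCtrl list. Those of the shFTO list were at chr16:284807-284856 (plus strand, 1160.8) and chr9:130413882-130413931 (plus strand, 463.35). Just outside lay chr10:104449650-104449700 (minus strand, 767.09) and chr4:56471466-56471516 (minus strand, 423.81) in the shCtrl list, and chr19:14673337-14673387 (plus strand, 2263.2) and chr6:7563969-7564019 (plus strand, 507.65) in the shFTO list.

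Very short peaks scored low within each list. The score is the authors' and was compared only within a list. In the shCtrl list the members had a median score of 86.01 (95% binomial interval 80.62 to 94.17), against 119.91 for peaks of 51 to 100 bp and 179.44 for all wider peaks. The shFTO members had a median of 105.16 (91.72 to 121.64), against 122.82 and 224.165. As a rank within the list, where 50 is the middle, the median member stood at the 23.0 percentile for shCtrl and at the 27.1 percentile for shFTO. A score under 100 was carried by 271 shCtrl members (59.4%) and 82 shFTO members (47.4%), against 27.8% and 25.1% of the wider peaks. Below the median score of their list lay 82.5% of the shCtrl members and 82.1% of the shFTO members, so in both conditions most members scored in the lower part of their list.

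A minority of very short peaks scored high. In the shCtrl list 2 members carried the score of 3100 that 406 peaks of the list share, at chr1:43159161-43159194 and chr19:18043824-18043857, both 34 bp on the plus strand and both without a partner in the shFTO list. They were followed by chr21:46275125-46275171 (minus strand, 1269.07), chr12:10762505-10762540 (minus strand, 974.01) and chr5:6750444-6750491 (plus strand, 841.94). No shFTO member reached 3100, a score that 611 peaks of that list share. The highest were chr3:47730877-47730914 (minus strand, 1944.6), chr9:36197548-36197585 (plus strand, 1320.5), chr21:46275125-46275171 (minus strand, 1239.63), chr16:284807-284856 (plus strand, 1160.8) and chr13:50321085-50321129 (minus strand, 1005.11). The peak on chromosome 21 was thus among the 5 strongest very short peaks of both lists, with the same edges in each. At the other end, 3 shCtrl peaks and 1 shFTO peak were 1 bp wide. The shCtrl peaks lay at position 32429659 of chromosome 2 with a score of 94.17, position 48450468 of chromosome 18 with 78.09 and position 2413698 of chromosome 19 with 70.4. The shFTO peak lay at position 144510230 of chromosome 8 with 91.05. None of these 4 had a partner.

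Many very short peaks carried exactly the same few scores, and these scores formed a regular series. MACS, whose form the peak names have, scores a peak by the upper tail of a Poisson distribution, the chance of seeing at least so many counts at a given background. The 10 commonest scores below 3100 in the shCtrl list, from 55.82 upward, equalled −10 log10 of the Poisson tail at a mean of 2.9309 for 14, 15, 16 and more counts, with a largest difference of 0.00462. The 10 commonest shFTO scores, from 55.89 upward, were matched at a mean of 3.7983 for 16 and more counts, with a largest difference of 0.00441. Both differences are within the rounding of the listed scores. The series places the scores on the scale of −10 log10 of a P value. Successive scores of a series are called steps here, and a peak was on a step if its score lay within 0.01 of one. The steps were 7.15 apart at the bottom of the shCtrl series and 6.57 apart at the bottom of the shFTO series, and whether the caller counts the tail from the peak's own count or from the next is not known.

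Of the very short peaks, 293 of 456 were on a step in the shCtrl list, or 64.3% (59.8% to 68.5%), and 74 of 173 in the shFTO list, or 42.8% (35.6% to 50.2%). Over all peaks 19.1% of the shCtrl list and 5.61% of the shFTO list were on a step. Members stood above the peaks of 51 to 100 bp as well, of which 36.5% and 15.4% were on a step. The classes next to the limit were closer in shCtrl, with 53.5% (45.7% to 61.0%) from 41 to 50 bp and 45.9% (41.8% to 50.1%) from 51 to 75 bp. For shFTO they were 33.3% (24.3% to 43.8%) and 19.5% (15.9% to 23.8%). The intervals of these 2 classes overlapped in shCtrl and were apart in shFTO. The members were also higher within classes of score. Among shCtrl peaks scoring from 50 to 75, 70.0% of the members and 28.7% of the wider peaks were on a step, and among those scoring 200 or more 40.4% and 5.26%. For shFTO the shares were 60.0% and 11.6% from 50 to 75, and 18.75% and 1.33% at 200 or more. The class of 200 or more has no upper limit, so score is not held equal within it. It held 12.5% of the shCtrl and 18.5% of the shFTO members, against 46.6% and 53.2% of the wider peaks. In the 2 classes between, from 75 to 100 and from 100 to 200, the members were also higher in both lists, and in none of the 8 classes did the Wilson intervals of members and wider peaks overlap. These intervals cover counting error only, and the peaks of a list come from 1 pair of libraries and are not replicates.

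The counts at which the members stood on a step were small. In the shCtrl list they ran from 14 to 90 with a median of 17, and 172 of the 293 members were on the lowest 5 steps. For shFTO they ran from 16 to 110 with a median of 19.5, and 38 of the 74 were on the lowest 5 steps. Wider peaks on a step had a median count of 20 for shCtrl and 21 for shFTO. The lowest score in both lists lies just above 50, and the step below the first would score 48.96 at 13 counts in the shCtrl list and 49.57 at 15 counts in the shFTO list. The lowest step that can be listed was therefore 14 counts in shCtrl and 16 in shFTO, and the fitted mean was 1.30 times higher in shFTO. There were 76 shCtrl members on the steps of 14 and 15 counts, and the ratio of the 380 others to the shFTO members was 2.197. These 380 include the 163 shCtrl members on no step, whose counts are not known, so this ratio does not put the lists on an equal footing. Read totals were not used here, and the part of the higher mean in the smaller number of very short shFTO peaks was not tested.

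**Figure D2:**
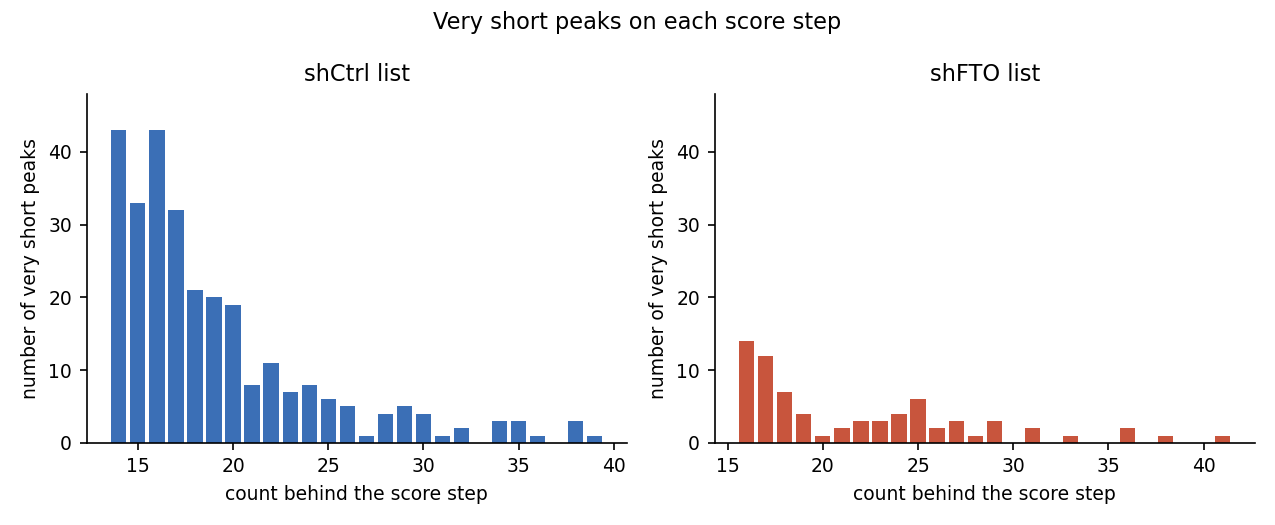
Number of very short peaks (vertical axis) on each step of the score series, given as the count whose Poisson tail equals the score (horizontal axis), in the shCtrl list (left) and the shFTO list (right). The lowest 26 steps are drawn, and 9 shCtrl members and 2 shFTO members lie on higher ones. The lowest 5 steps, which begin at 14 counts in shCtrl and at 16 in shFTO, hold 172 of 293 and 38 of 74 members.

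The 163 shCtrl and 99 shFTO members that were on no step scored higher, with a median of 102.24 against 78.09 for those on a step in the shCtrl list and 121.64 against 79.95 in the shFTO list. A partner in the other list, an overlapping peak, was found for 16 of 293 shCtrl members on a step, or 5.46% (3.39% to 8.69%), and for 25 of 163 on no step, or 15.3% (10.6% to 21.7%). Among shFTO members the shares were 7 of 74, or 9.46% (4.66% to 18.3%), and 20 of 99, or 20.2% (13.5% to 29.2%). The intervals of the 2 classes were apart in the shCtrl list and overlapped in the shFTO list.

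Partners were counted at an overlap of at least 1 bp, whatever the strand. Of the shCtrl members 41 had a partner, or 8.99% (6.70% to 11.97%), where 20.2% of all shCtrl peaks had one. Of the shFTO members 27 had one, or 15.6% (10.95% to 21.8%), where 19.6% of all shFTO peaks had one. The shCtrl members thus had partners less often than the list as a whole, while the interval of the shFTO members included the value of theirs. Peaks of 51 to 100 bp were also below their lists, with 13.8% (12.1% to 15.7%) in shCtrl and 15.0% (13.0% to 17.3%) in shFTO. No partner was found for the 22 shCtrl peaks of 10 bp or less, which allows a share of up to 13.6% (3 counts of the total), nor for the 4 shFTO peaks, too few for a useful limit. From 11 to 20 bp, from 21 to 30 bp and from 31 to 40 bp the shares were 8.96%, 4.76% and 8.87% for shCtrl, and 11.1%, 14.3% and 6.67% for shFTO on 9, 28 and 45 peaks. In the class of 41 to 50 bp, 12.6% (8.29% to 18.6%) of the shCtrl and 21.8% (14.5% to 31.6%) of the shFTO peaks had one. The shares thus did not climb steadily with width in either list, and the shFTO share from 41 to 50 bp was above the 13.9% from 51 to 75 bp and the 15.6% from 76 to 100 bp, with only the first outside its interval.

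**Figure D3:**
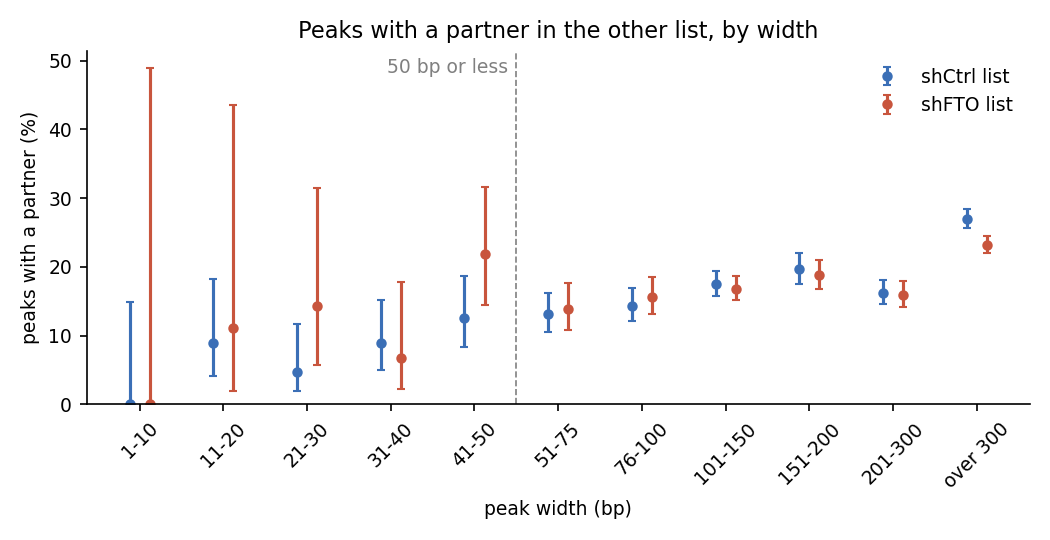
Share of peaks with an overlapping peak in the other list (vertical axis, percent) by class of peak width in bp (horizontal axis) in the shCtrl list (blue) and the shFTO list (red), with bars for 95% Wilson intervals. The 5 classes left of the dashed line are the very short peaks, whose shares go up and down between 0% at 1 to 10 bp and 12.6% (shCtrl) and 21.8% (shFTO) at 41 to 50 bp. The next class, 51 to 75 bp, stands at 13.1% and 13.9%, and peaks over 300 bp at 27.0% and 23.2%.

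The share with a partner was also higher among high scores. Among shCtrl members scoring from 50 to 75, 5.29% had a partner against 10.7% of the wider peaks with such scores, and among those scoring 200 or more 19.3% against 28.5%. For shFTO 3.64% (1.003% to 12.3%) against 11.4% (9.93% to 13.1%) had a partner from 50 to 75, and 13 of 32 members, or 40.6% (25.5% to 57.7%), against 23.6% (22.5% to 24.7%) at 200 or more. At 200 or more, a class without an upper limit, the interval of the shFTO members lay just above that of the wider peaks. From 75 to 100 the shFTO shares were 3.70% against 14.9%, and from 100 to 200 18.6% against 17.7%. The shCtrl shares there were 3.96% (1.55% to 9.74%) against 10.8%, and 13.3% against 17.3%. Apart from shFTO at 200 or more, the intervals of members and wider peaks overlapped in every class of both lists. The shCtrl member intervals from 50 to 75 (2.81% to 9.75%) and from 75 to 100 still lay below the value of the wider peaks. In the other shCtrl classes and the shFTO classes under 200, the member interval included that value.

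The very short peaks with a partner formed 45 pairs, all on the same strand in both lists. In 23 pairs both peaks were very short, in 18 only the shCtrl peak was, and in 4 only the shFTO peak was. Of the paired members, 56.1% for shCtrl and 85.2% for shFTO thus met another very short peak. Both shares count the same 23 pairs, over 41 shCtrl and 27 shFTO members, and differ only by these totals. All 45 pairs shared at least 1 edge to the base. Where both peaks were very short, 18 of 23 pairs had both edges in common, or 78.3% (58.1% to 90.3%), and 5 had 1. Among the 1992 pairs of wider peaks, 55.0% had both edges in common, 33.3% had 1 and 11.6% had none. Among the 186 pairs whose narrower peak was 51 to 100 bp, 67.2% had both, 32.8% had 1 and none lacked a common edge. Where both peaks were very short the interval included the share of the 51 to 100 bp pairs, and identical edges were not particular to very short peaks.

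The 5 pairs of very short peaks with the highest summed ranks had the same edges in both lists. The peak at chr21:46275125-46275171 (minus strand, 47 bp) scored 1269.07 in shCtrl and 1239.63 in shFTO. The peak at chr9:36197548-36197585 (plus strand, 38 bp) scored 678.63 and 1320.5, and the peak at chr20:21319682-21319726 (plus strand, 45 bp) scored 468.09 and 594.07. They were followed by chr2:47612305-47612349 (plus strand, 45 bp) with 265.34 and 500.51, and chr8:145323007-145323045 (plus strand, 39 bp) with 362.39 and 244.79. Scores cannot be set against each other across lists, so ranks were used instead. In rank, 10 of the 23 pairs stood higher in shFTO and 13 higher in shCtrl, and the median difference, shFTO minus shCtrl, was −2.69 percentile points. The widest moves were at chr19:751146-751171 (plus strand), which stood at the 75.2 percentile in shCtrl and the 25.6 in shFTO, and at chr17:602571-602620 (minus strand), which stood at the 6.53 percentile in shCtrl and the 46.9 in shFTO. Both of these were picked after their values were seen. Across the 1992 pairs of wider peaks the median difference was −2.81 points, close to that of the very short pairs.

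In the 27 pairs with 1 common edge, the other edge differed by 1 to 264 bp with a median of 36 bp. The shFTO peak was the wider one in 20 of them and the shCtrl peak in 7, and 18 and 4 of these have that direction by the choice of members. In the 18 pairs that were very short in shCtrl alone, the common edge was the 5′ edge in 16 and the 3′ edge in 2, and the shFTO peak was up to 279 bp wide. The longest such peak lay on the minus strand of chromosome 1, where the shCtrl peak chr1:204459460-204459474 of 15 bp scored 128.88 and the overlapping shFTO peak of 279 bp scored 159.8. In the 4 pairs that were very short in shFTO alone, the common edge was the 3′ edge in all 4. Over the 5 pairs very short in both lists with 1 common edge it was the 5′ edge in 4. In total the 5′ edge was the common one in 20 of 27 pairs, and among single-edge pairs of wider peaks in 436 of 664. The pairs nearest in width went the other way. Where the narrower peak was 51 to 100 bp, the single common edge was the 5′ edge in 24 pairs and the 3′ edge in 37.

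**Figure D4:**
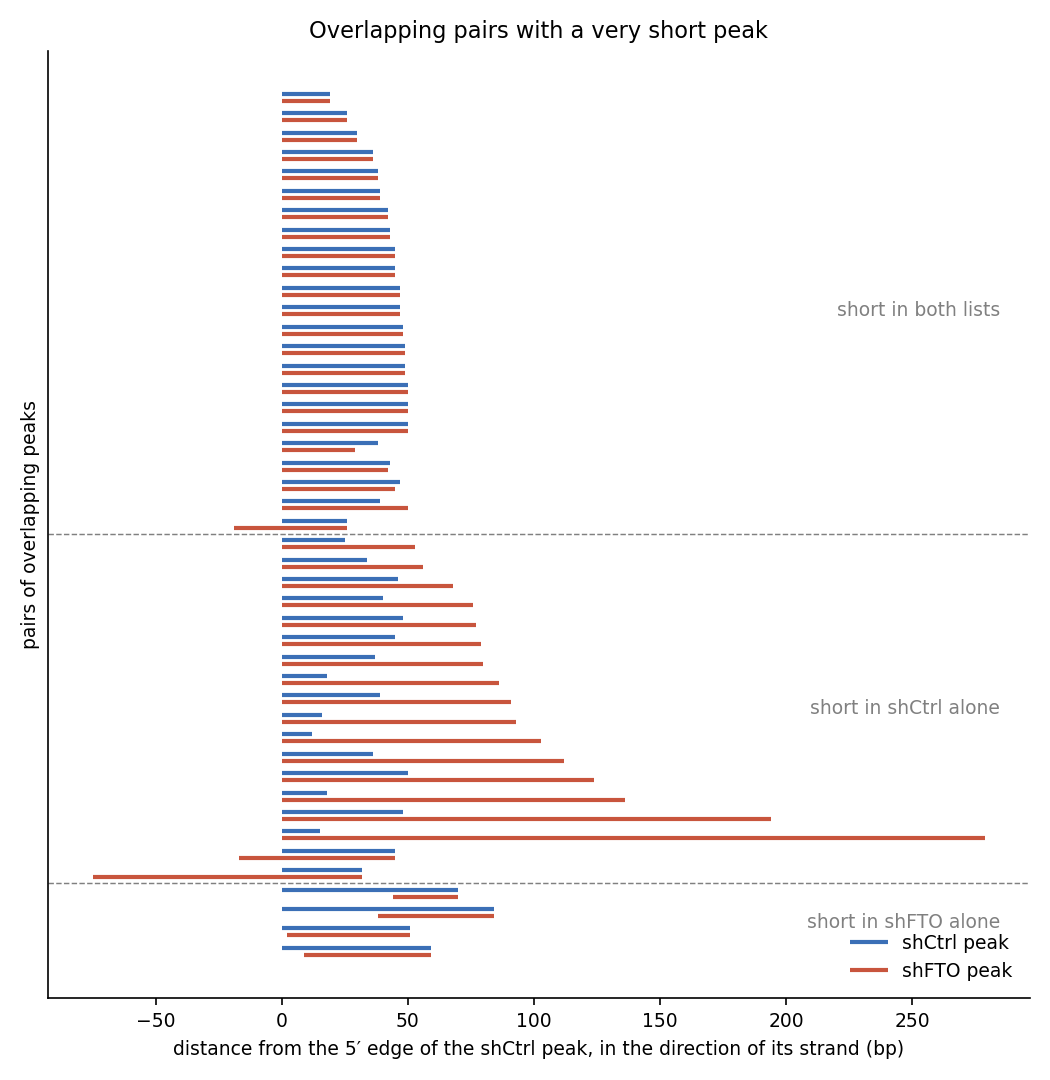
The 45 overlapping pairs with a very short peak. Each pair is drawn as a blue line for the shCtrl peak and a red line for the shFTO peak, along the distance in bp from the 5′ edge of the shCtrl peak in the direction of its strand (horizontal axis). The 18 topmost pairs coincide at both edges, and in 16 of the 18 pairs that are very short in shCtrl alone the lines start together and the shFTO peak reaches further toward the 3′ side.

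The very short peaks were then set against their neighbours in the same list, to ask whether they could be pieces of 1 peak divided at introns, which would lie near each other on a strand and might carry 1 name or 1 score. All names were unique. A neighbour on the same strand with at most 5000 bp between the facing edges was found for 74 shCtrl members, or 16.2% (13.1% to 19.9%), where 22.5% of all shCtrl peaks had one. Of the shFTO members 46 had one, or 26.6% (20.6% to 33.6%), where 24.7% of all shFTO peaks had one. The shCtrl members thus had close neighbours less often than their list, and the interval of the shFTO members included the value of theirs. Within 100 bp no member of either list had a neighbour, which allows shares of up to 0.658% and 1.73%. Among wider peaks 12 of 9631 in shCtrl (0.125%) and 18 of 10150 in shFTO (0.177%) had one, and both shares lie below those limits. Within 1000 bp there were 9 shCtrl members, or 1.97% (1.04% to 3.71%), against 4.91% of the wider peaks. For shFTO there were 7, or 4.05% (1.97% to 8.12%), against 4.12%. The shCtrl interval lay below the value of the wider peaks, and the shFTO interval included it. Within 10000 bp the shCtrl members had a neighbour in 30.9% (26.9% to 35.3%) against 34.4%, and the shFTO members in 43.4% (36.2% to 50.8%) against 36.9%. At 10000 bp, a window chosen after seeing the data, each interval included the value of the wider peaks of its list.

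**Figure D5:**
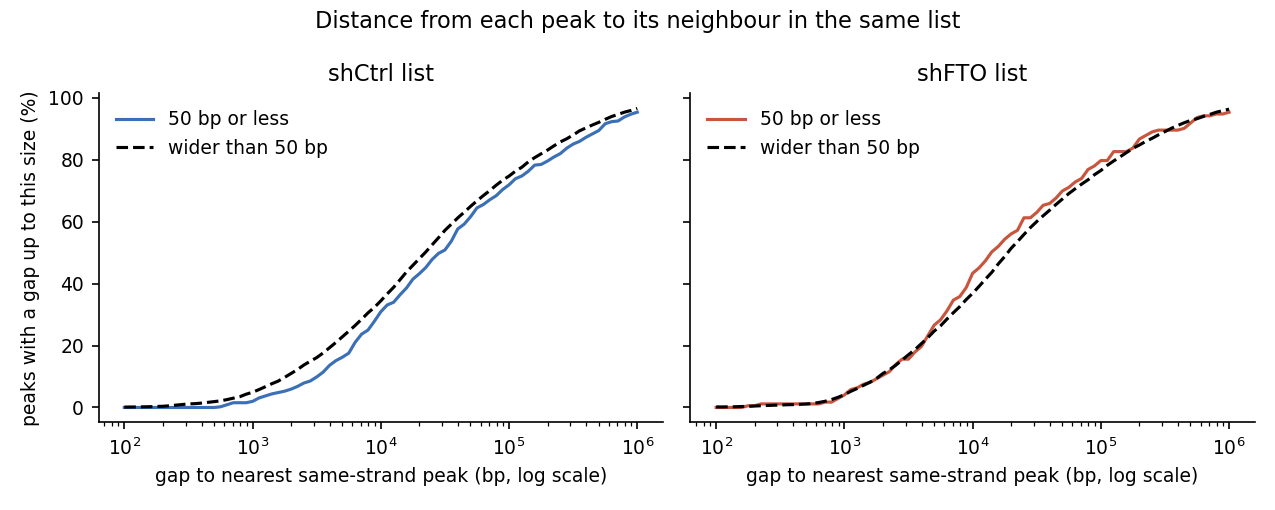
Share of peaks (vertical axis, percent) whose nearest peak of the same list and strand lies within the distance on the horizontal axis (bp, log scale), for very short peaks (coloured line) and wider peaks (dashed line) in the shCtrl list (left) and the shFTO list (right). At 5000 bp the shCtrl members lie below the wider peaks, with 16.2% against 22.8%, while the shFTO members stand at 26.6% against 24.7% there and above the wider peaks at 10000 bp, with 43.4% against 36.9%.

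A shared score between a very short peak and a neighbour was seen once. On the plus strand of chromosome 1 the 15 bp shCtrl peak at chr1:65852598-65852612 and the 98 bp peak at chr1:65854939-65855036, 2326 bp apart, both scored 62.98, which is the step of 15 counts and is held by many peaks of the list. This is 1 of 456 shCtrl members, or 0.219% (0.0387% to 1.23%), and for shFTO it was 0 of 173, which allows a share of up to 1.73%. Among wider peaks 36 in shCtrl and 38 in shFTO, 0.374% in either case, carried the score of a neighbour. The intervals of the members included the share of the wider peaks. Pieces scored and named one by one would not be seen in this comparison, and whether the edges lie at exon edges was not analysed here.

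The neighbours were mostly wider than the members, which follows from the choice of members, and more often scored higher in the shCtrl list. Of the 74 shCtrl members with a neighbour within 5000 bp, 70 were narrower than it and 51 scored lower, with a median width of 137.5 bp and a median score of 178.235 for the neighbour against a score of 94.17 for the member. Of the 46 shFTO members 41 were narrower and 28 scored lower, with medians of 128 bp and 185.645 for the neighbour against 118.125 for the member. As a share, 68.9% (57.7% to 78.3%) of these shCtrl members and 60.9% (46.5% to 73.6%) of the shFTO members scored below their neighbour, against 48.1% and 48.98% of the wider peaks, a value that the shFTO interval included. The neighbours of members were not higher by median score than those of wider peaks, which stood at 186.41 in shCtrl and 237.11 in shFTO. The peak numbers of member and neighbour were consecutive in 46 of 74 shCtrl cases, or 62.2% (50.8% to 72.4%), and in 28 of 46 shFTO cases, or 60.9% (46.5% to 73.6%), against 61.8% and 65.6% for wider peaks with a neighbour. The member lay on the 5′ side of its neighbour in 36 of 74 shCtrl and 28 of 46 shFTO cases, and both intervals, 37.6% to 59.8% and 46.5% to 73.6%, included the values of the wider peaks (50.3% and 49.3%).

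The closest neighbour of a very short peak was found in the shFTO list on the minus strand of chromosome 11, where the 23 bp peak at chr11:64947700-64947722 (score 64.62) lay 175 bp from a peak of 646 bp with a score of 1063.68. On the plus strand of chromosome 20 the 38 bp peak at chr20:3904465-3904502 (71.96) lay 212 bp from a peak of 362 bp with a score of 507.47. In the shCtrl list the closest was the 45 bp peak at chr17:73623728-73623772 (minus strand, 94.17), 525 bp from a peak of 165 bp with a score of 55.82. These 3 were picked for their distance. In each list 4 pairs of neighbours were very short on both sides. They included 2 peaks of 49 and 14 bp on the plus strand of chromosome 10 in shCtrl, 3619 bp apart with scores of 147.37 and 102.54, and 2 of 42 and 46 bp on the plus strand of chromosome 19 in shFTO, 1048 bp apart with scores of 91.05 and 62.46. At the other extreme 128 shCtrl members (28.1%) and 35 shFTO members (20.2%) had no peak of their strand within 100000 bp, against 25.3% and 23.4% of the wider peaks.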

How the data were processed

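Peak lists of shCtrl and shFTO RWPE1 cells, each from 1 IP and 1 input library, were used as deposited. Per the submitters' processing notes the reads were handled with cutadapt 1.9.3 and HISAT2 on hg19. The peak caller's version and settings, and the rule that chose the listed peaks, are not given in the sources used here. The authors gave each peak a start, an end and a score, and the deposited score was compared only within a list. The width of a peak can depend on the settings of the caller. Peaks of 50 bp or less were taken as members, and these, the comparisons and the named positions were chosen with earlier results of these data known. Named were the 5 highest-scoring members per list, the highest-ranked pairs, peaks at the limit and neighbours with 1 score. All other positions given were chosen after their values were seen.

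Overlap, neighbours and score steps were computed with Python 3.11.15, pandas 2.3.3, NumPy 2.4.6 and SciPy 1.17.1 and tested on simulated data. The Poisson mean of each list was the one that best matched its 10 commonest scores below 3100, members included. Shares have 95% Wilson intervals and medians have binomial intervals, which cover counting error only. Other width limits, windows and overlaps were tried. Exon edges and DRACH motifs were not analysed here.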

Additional observations from a re-analysis of the deposited data

How the results depend on the processing

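With 30 bp as the limit there were 173 shCtrl and 41 shFTO members, and with 75 bp 1007 and 562. At 30 bp or less the shCtrl share with a partner was 5.78%, the share with a neighbour 12.1% and the median score 78.09, and at 75 bp or less the median score was 101.05. Members in the upper part of their list by score, from its median upward, were also taken alone. Of these, 15 of 80 in shCtrl had a partner, or 18.75% (11.7% to 28.7%). In shFTO 13 of 31 had one, or 41.9% (26.4% to 59.2%). Wider peaks of that score range were not set beside them. With a window of 1000 bp, 1.97% of the shCtrl and 4.05% of the shFTO members had a neighbour, and with 10000 bp, chosen after seeing the data, 30.9% and 43.4%. With 20000 bp the shares were 43.2% (38.7% to 47.8%) for shCtrl and 56.1% (48.6% to 63.3%) for shFTO. The wider peaks stood at 48.1% and 51.5% there. The shCtrl interval lay below the value of its wider peaks, and the shFTO interval included the value of its own. The wider window admits more neighbours by construction. The other 30 values stayed within the interval of the reported value, among them the shares of partners on the same strand or within 100 bp, and the shares on a step with a tolerance of 0.03 or with scores held by at least 10 peaks, both chosen after seeing the data. Exon edges and the DRACH motif were not run, since no annotation or genome of hg19 was used here. No paired analysis was possible because a condition is represented by a single peak list, and leaving out a replicate was not possible for the same reason. The unknown depth limits the absence of a partner to what each list could detect.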

Other observations

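The very short peaks without a partner were set against the nearest peak of the other list. On the same strand, 17 of 415 such shCtrl peaks, or 4.10% (95% Wilson interval 2.57% to 6.46%), lay within 1000 bp of a shFTO peak, against 4.12% of the wider shCtrl peaks without a partner. Of the 146 such shFTO peaks 3 did, or 2.05% (0.701% to 5.87%), against 3.98% of the wider ones. Within 5000 bp the shares were 16.6% (13.4% to 20.5%) against 21.9% in shCtrl and 19.2% (13.6% to 26.3%) against 21.7% in shFTO. The shCtrl interval lay below the value of the wider peaks, and the shFTO interval included it.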
